A study of Saccharomyces cerevisiae with 11 samples.

Results

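The hexose transporter genes HXT1, HXT2, HXT3, HXT4, HXT5, HXT6 and HXT7 were taken by name from the yeast R64 annotation, and all 7 were found among its 6002 nuclear protein-coding genes. The data are 4 ChIP-seq peak lists, 2 for Cbp20 and 2 for Rnt1. ChIP-seq sequences the DNA crosslinked to a protein, and each list gives the stretches in which more DNA was recovered than the local background. Both strains were MATa with the deletions his3Δ1, leu2Δ0, met15Δ0 and ura3Δ0, grew at 30 °C in YPD, a rich medium whose sugar is glucose, and were taken in mid-exponential phase. The Rnt1-myc strain carries RNT1-myc13::NAT. For Cbp20-myc the labels give CBP80-myc13::NAT and the study's strain list CBP80-myc13::HIS. Both place the tag on the gene of Cbp80, the partner of Cbp20 in the cap-binding complex (CBC). The study's results instead name a myc-tagged CBC20 gene and treat the signal as that of Cbp20. Which subunit carried the tag is thus not settled, and the lists are called Cbp20 here as in the labels. An antibody to the myc tag was used for both proteins, several precipitations were pooled for each library, and no untagged strain was used here. Only replicate 2 of each protein is numbered in the labels. The study's methods describe its experiments in general as biologically replicated, but neither source says which cultures these libraries came from.

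The HXT genes encode sugar facilitators of the plasma membrane, which let glucose and related hexoses run into the cell down their gradient. Yeast adjusts which of them it makes to the glucose outside. Low-affinity carriers serve when the sugar is plentiful, and high-affinity carriers take over when it runs short. The sensors Snf3 and Rgt2 report external glucose and relieve the repressor Rgt1 at HXT promoters, whereas the repressors Mig1 and Mig2 shut the high-affinity genes in ample glucose. The CBC binds the cap of each new Pol II transcript, so its ChIP signal on a gene depends on nascent RNA. Rnt1 is the nuclear RNase III, which cuts hairpins, typically those closed by an AGNN loop, mostly in precursors of stable non-coding RNA. The annotation describes HXT1 and HXT3 as low-affinity, HXT5 as of moderate affinity, and HXT2, HXT4, HXT6 and HXT7 as high-affinity transporters.

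The genes fell into 3 patterns, as the bars of coverage by gene show. HXT1 and HXT3 lay under peaks of both proteins, HXT2 lay under Cbp20 peaks alone, and HXT4, HXT5, HXT6 and HXT7 had no base under any peak in any of the 4 lists. Coverage is the share of the annotated gene, which here is the coding sequence, that lies under peaks of a library. The lists carry no peak height and the sequencing depth is unknown, so 0% means only that no part of the gene passed the peak caller's threshold.

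**Figure D1:**
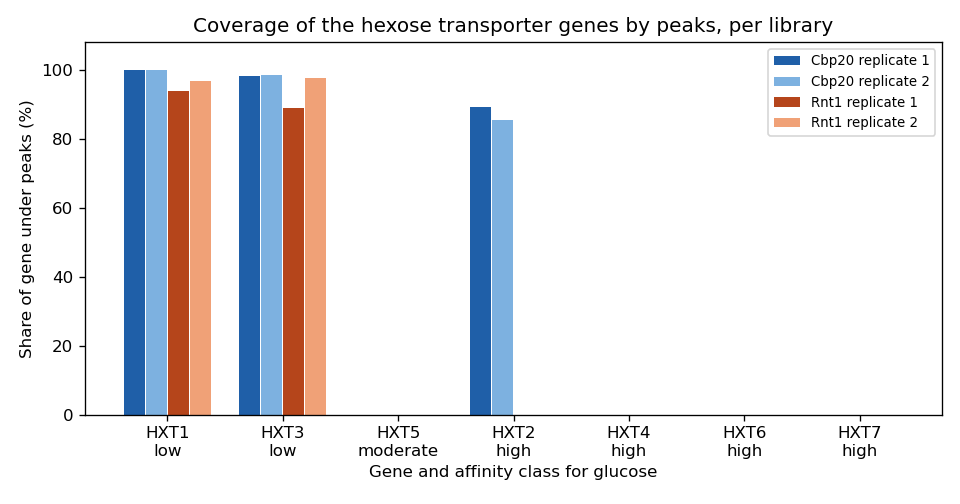
Share of each gene (%) under peaks, with 1 bar for each of the 4 libraries. The genes are ordered by affinity class. All bars of HXT1 and HXT3 stand between 88.8% and 100%, HXT2 has Cbp20 bars of 89.2% and 85.4% and none for Rnt1, and the other 4 genes have no bar.

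Since the peaks of HXT1, HXT3 and HXT2 begin close to their start codons, the sequences there show where the called peaks start. These edges do not place a protein to the base. Each run below is the coding strand of R64 from 30 bases before the start codon, and capitals mark the bases that lie under peaks of the named protein in both replicates. HXT1 is shown at chrVIII:292506-292655, HXT3 at chrIV:1164451-1164690, both on the minus strand, and HXT2 at chrXIII:288049-288198 on the plus strand.
HXT1, Cbp20: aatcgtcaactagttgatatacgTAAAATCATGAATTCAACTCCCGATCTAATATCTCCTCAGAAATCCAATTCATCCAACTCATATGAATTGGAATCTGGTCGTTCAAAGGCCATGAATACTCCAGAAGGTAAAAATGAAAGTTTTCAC
HXT1, Rnt1: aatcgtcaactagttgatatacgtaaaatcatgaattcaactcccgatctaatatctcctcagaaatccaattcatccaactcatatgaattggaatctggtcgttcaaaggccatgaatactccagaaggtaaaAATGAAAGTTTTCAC
HXT3, Cbp20: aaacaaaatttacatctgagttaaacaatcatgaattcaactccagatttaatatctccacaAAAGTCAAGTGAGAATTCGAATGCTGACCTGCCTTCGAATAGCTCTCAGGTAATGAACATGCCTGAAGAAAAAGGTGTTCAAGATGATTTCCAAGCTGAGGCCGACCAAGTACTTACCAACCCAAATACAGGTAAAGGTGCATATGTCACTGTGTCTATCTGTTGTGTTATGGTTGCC
HXT3, Rnt1: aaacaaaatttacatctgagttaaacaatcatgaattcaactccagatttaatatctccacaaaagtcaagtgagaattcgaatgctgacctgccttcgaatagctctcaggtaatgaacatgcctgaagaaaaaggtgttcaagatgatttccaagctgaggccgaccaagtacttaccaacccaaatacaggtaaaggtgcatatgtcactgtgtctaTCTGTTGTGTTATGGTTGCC
HXT2, Cbp20: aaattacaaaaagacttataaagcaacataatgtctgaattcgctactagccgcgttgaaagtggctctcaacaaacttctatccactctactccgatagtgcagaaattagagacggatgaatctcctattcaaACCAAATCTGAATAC

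HXT1 (YHR094C, chromosome VIII from 290913 to 292625 of R64, minus strand, 1713 bp) encodes a low-affinity carrier that glucose induces. It was covered over 100% of its length by Cbp20 in both replicates, and over 93.9% and 96.7% by Rnt1 in replicates 1 and 2. A single peak spanned the gene in each list. The Cbp20 peaks ran from 290749 to 292632 and from 290856 to 292643, which places their 5ʹ edge 7 bp and 18 bp before the start codon. The Rnt1 peaks ran from 290881 to 292520 and from 290901 to 292568. They began 105 bp and 57 bp inside the gene, so both Rnt1 regions started further 3ʹ than either Cbp20 region, as the capitals in the HXT1 runs show. At the other end, Cbp20 reached 164 bp and 57 bp past the stop codon and Rnt1 32 bp and 12 bp. Both Rnt1 ends lay nearer to the stop codon than both Cbp20 ends.

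HXT3 (YDR345C, chromosome IV from 1162957 to 1164660, minus strand, 1704 bp), the other low-affinity carrier, is described as induced in low as well as in high glucose. Cbp20 covered 98.1% and 98.5% of it and Rnt1 88.8% and 97.7%, in replicates 1 and 2. Here too each list held one peak over the gene. The Cbp20 peaks began 32 bp and 26 bp inside the coding sequence and the Rnt1 peaks 190 bp and 39 bp inside. Neither protein therefore had the first codons of HXT3 under a peak, and no list had any base of the 500 bp before its start codon. Past the stop codon, Cbp20 reached 320 bp and 100 bp and Rnt1 163 bp and 74 bp, so that the ends of the 2 proteins overlapped in range.

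The 5ʹ edge of Rnt1 lay 93.5 bp further 3ʹ than that of Cbp20 in HXT1, at 81 ± 33.9 bp against −12.5 ± 7.78 bp from the start codon (SD, n = 2 replicates each). In HXT3 the distance was 85.5 bp, from 29 ± 4.24 bp for Cbp20 to 114.5 ± 107 bp for Rnt1 (SD, n = 2 each). The libraries of the 2 proteins did not overlap at this edge in either gene, and an exact two-sided permutation of the library labels gave p = 0.333 for each, the smallest that 2 libraries against 2 allow. The offset in HXT3 is smaller than the spread of its own Rnt1 replicates. In both genes the offset is also smaller than the narrowest peak of any list, 146 bp. Such an offset is not particular to these genes. Over the 388 coding genes that lay to at least 50% under peaks in all 4 lists, the median offset at the 5ʹ edge was 101 bp (quartiles 43.9 bp and 179.75 bp), with Rnt1 further 3ʹ in 87.6% of them, and at the 3ʹ edge the median was −55.25 bp. In HXT1 and HXT3 the 3ʹ edge of Rnt1 lay 88.5 bp and 91.5 bp short of that of Cbp20, with exact permutation p = 0.333 and p = 0.667.

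HXT2 (YMR011W, chromosome XIII from 288079 to 289704, plus strand, 1626 bp) encodes a high-affinity carrier whose expression low glucose induces and high glucose represses. Cbp20 covered 89.2% and 85.4% of the gene in replicates 1 and 2 and Rnt1 0% in both. Unlike in HXT1 and HXT3, the Cbp20 peaks stayed inside the coding sequence at both ends. They ran from 288157 to 289607 and from 288184 to 289572, beginning 78 bp and 105 bp after the first base and ending 97 bp and 132 bp before the last. The nearest Rnt1 peaks lay past the 3ʹend of HXT2 and not on it. They ran from 290705 to 290980 and from 290645 to 291001 and spanned the tRNA gene YNCM0010W (290801 to 290872). Of all coding genes, 25.1% carried Cbp20 in both replicates and no Rnt1 in either, as HXT2 did. The difference of 87.3 percentage points between the proteins at HXT2 had an exact permutation p = 0.333 (n = 2 libraries each), again the smallest possible.

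**Figure D2:**
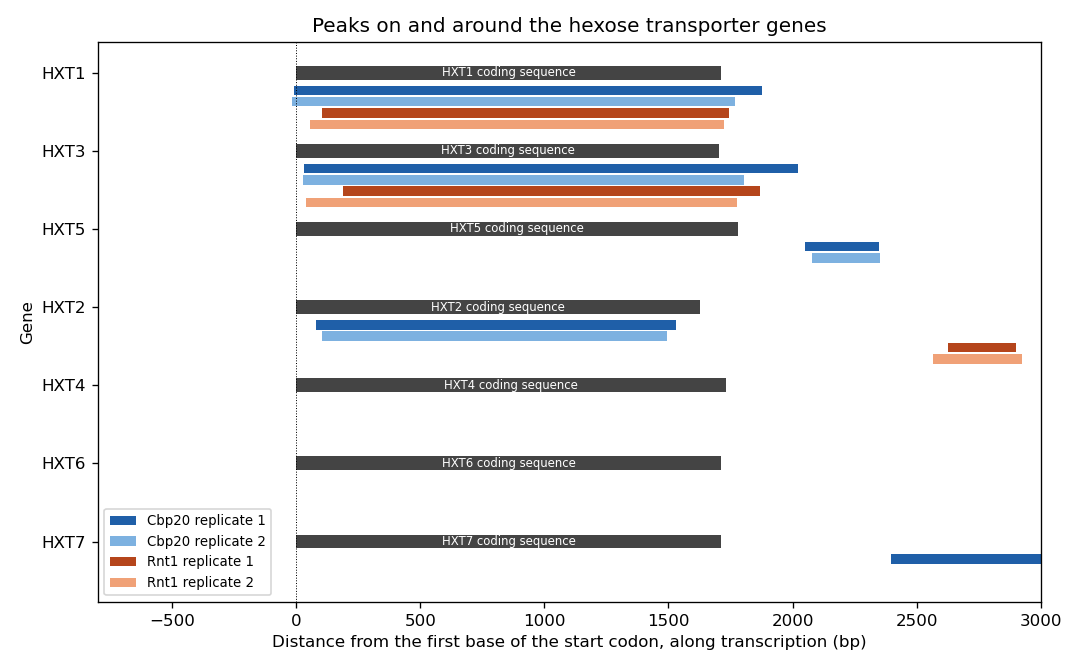
Peaks of the 4 libraries drawn against distance from the first base of the start codon (bp), with the coding sequence of each gene as a dark bar. Peaks are cut at the edges of the window. Rnt1 regions of HXT1 and HXT3 start further right than the Cbp20 regions, by 93.5 bp and 85.5 bp on average.

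The 4 genes without a peak are spread over both clusters of HXT genes. HXT4 (YHR092C, chromosome VIII from 287081 to 288811, minus strand, 1731 bp) and HXT5 (YHR096C, chromosome VIII from 294669 to 296447, minus strand, 1779 bp) flank HXT1, with 2101 bp and 2043 bp between the genes. HXT4 encodes a high-affinity carrier that low glucose induces, and HXT5 a carrier of moderate affinity that is made when growth slows or the carbon source cannot be fermented. No peak of any list lay in the 500 bp before the start codon or the 300 bp after the stop codon of HXT4. Downstream of HXT5 both Cbp20 lists held a short peak, from 294099 to 294398 and from 294094 to 294367, which lay 270 bp and 301 bp past the stop codon and on no annotated gene. Rnt1 had no peak there. Thus 2 genes without a peak lay within about 2 kb of HXT1, whose peaks ended within 164 bp of its coding sequence.

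HXT7 (YDR342C, chromosome IV from 1154216 to 1155928) and HXT6 (YDR343C, from 1159608 to 1161320), both of 1713 bp on the minus strand, lie next to HXT3. There are 3679 bp between HXT7 and HXT6 and 1636 bp between HXT6 and HXT3. Both encode high-affinity carriers that high glucose represses. Their coverage was 0% in Cbp20 replicates 1 and 2 and in Rnt1 replicates 1 and 2, so neither the pair nor the replicates differed. The next gene past HXT7, YDR341C, an arginine tRNA ligase gene 589 bp away, had 83.3% and 47.5% of its length under Cbp20 and none under Rnt1. The small gene YDR344C between HXT6 and HXT3 was at 0% in all lists, as were MSR1, AHT1 and PAL2, the other genes within 1000 bp of a member. No peak on a member reached another annotated gene.

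HXT6 and HXT7 were set apart because reads of 1 cannot be told from those of the other over most of their length. The methods describe a filter for uniquely mapped reads, but peaks also lay on repeated sequence, and more of it in the replicate 2 lists. Of the bases without a unique window of 100 bases, 17.9% and 28.2% lay under Cbp20 peaks in replicates 1 and 2, against 23.4% and 21.3% of unique bases. For Rnt1 these values were 6.89% and 22.1% of repeated bases, against 5.86% and 9.34% of unique ones. How each list treated reads that map to several places is therefore not certain, and neither is what 0% means for HXT6 and HXT7. Their coding sequences differed at 3 of 1713 bases, written as the HXT6 base, the position from the start codon and the HXT7 base: T1632C, G1666A and T1677C. The first 1631 bases were identical, as were 84 bases before the start codon, and 1 of the 3 differences changes an amino acid. The stretch that holds all 3 is printed for both genes, with the differing bases in capitals, from coding base 1588 to 1677 (chrIV:1159644-1159733 for HXT6 and chrIV:1154252-1154341 for HXT7, minus strand).
HXT6: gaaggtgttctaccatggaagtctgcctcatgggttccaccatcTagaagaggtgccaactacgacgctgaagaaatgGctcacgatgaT
HXT7: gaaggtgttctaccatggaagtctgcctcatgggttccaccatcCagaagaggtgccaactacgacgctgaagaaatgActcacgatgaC

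Uniqueness was measured as the share of a gene's bases whose surrounding window, on either strand, occurs once in the R64 genome. For windows of 100 bases it was 7.71% in HXT6 and in HXT7, namely the last 132 bases, from coding base 1582 to 1713. It was 98.8% in HXT1, 100% in HXT2, 96.6% in HXT3, 100% in HXT4 and 98.9% in HXT5. The value for the pair ran from 6.25% with windows of 50 bases to 9.17% with 150. When windows with another locus within 3 mismatches were also left out, 0.467% of either gene remained, or 8 bases, against 89.4% of HXT3. The read length is not given in the sources used here, so these windows stand in for reads and pairs of reads. A coverage of 0% for HXT6 and HXT7 therefore rests on sequence that is mostly not unique, while that of HXT4 and HXT5 does not. The part of this in the absence of peaks was not tested.

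**Figure D3:**
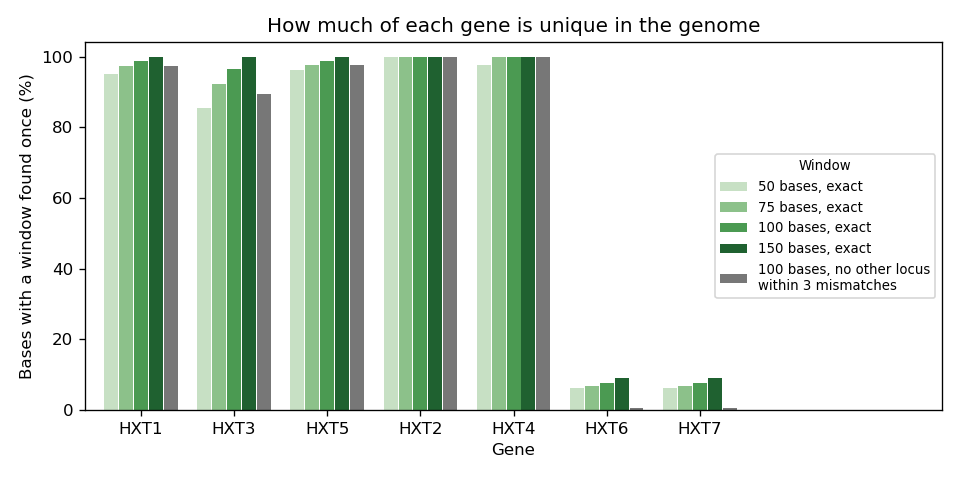
Share of bases (%) in each gene whose window occurs once in the genome, for exact windows of 50 to 150 bases and for windows of 100 bases with no other locus within 3 mismatches. HXT6 and HXT7 stay below 10% at every window and the other 5 genes above 85%.

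Repeated genes as a group carried peaks, counted here from an overlap of at least 1 bp. Of the 140 coding genes with under 10% of their bases in unique windows of 100 bases, which include HXT6 and HXT7, 72 (51.4%) had Cbp20 and 42 (30%) had Rnt1 in both replicates. Among the 5777 genes with at least 50% of their bases in unique windows, the shares were 44.8% and 12.4%. In replicates 1 and 2 taken alone, 73 and 97 of the 140 had Cbp20 and 45 and 79 had Rnt1. Such counts do not say how much of a gene was covered, nor how reads of HXT6 and HXT7 were treated. Of the 500 bp before the start codon of HXT6 and of HXT7, 93% were in unique windows, as were 100% of the 300 bp after the stop codon, and no list had a base of these flanks under a peak. The same flanks of HXT2, a gene with Cbp20 peaks, had none either. Counting only bases in unique windows of 100 bases moved the coverage of no member by more than its spread between replicates. For HXT4, HXT5, HXT6 and HXT7 this was fixed in advance, since none of their bases lay under a peak. The value of HXT2, which is wholly unique, could not change either. The count therefore says nothing about HXT6 and HXT7.

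The affinity classes were then compared within each library. The mean coverage of HXT1 and HXT3 was 99.1% and 99.2% for Cbp20 and 91.4% and 97.2% for Rnt1, in replicates 1 and 2. That of HXT2, HXT4, HXT6 and HXT7 was 22.3% and 21.4% for Cbp20, all of it from HXT2, and 0% for Rnt1 in both. The difference of the high-affinity from the low-affinity class was thus −77.3 percentage points for Cbp20 and −94.3 for Rnt1. Both differences count HXT6 and HXT7 at 0%, although what 0% means for these genes is not certain. The classes are 2 genes against 4 that share libraries, and genes are not replicates, so no test is given. With HXT6 and HXT7 set aside for their sequence, only HXT2 and HXT4 can be read in the high-affinity class. Under Cbp20, HXT2 had 89.2% and 85.4% and HXT4 0% in both replicates, so these 2 genes differ from each other. Under Rnt1 both were at 0%. The annotation pairs HXT1 with HXT6, HXT3 with HXT5 and HXT4 with HXT7 as copies from the whole-genome duplication. In HXT1 and HXT6 and in HXT3 and HXT5, 1 copy lay under peaks of both proteins and the other under none, and HXT4 and HXT7 both had none. The pairs with HXT6 or HXT7 rest on the 0% of these genes, so only HXT3 and HXT5 can be compared as copies. HXT1 and HXT3 are 83.0% identical in their coding bases and HXT4 and HXT7 82.9%. HXT3 is nearly as like HXT6 (82.6%) and HXT7 (82.7%), which had no peak. The longest identical run that HXT3 shares with them is 149 bases, at its coding bases 1346 to 1494, and in HXT3 it lay under the peaks of all 4 lists. How reads from this run were placed was not tested. The pair HXT1 and HXT6 is 76.1% identical and the pair HXT3 and HXT5 72.3%. HXT2 is 71.0% to 73.1% identical to the others except HXT5 (70.4%).

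Against all 6002 coding genes, the counts of members were as follows. A Cbp20 peak in both replicates was present on 3 of the 7 members, where 44.9% of all genes had one, and a Rnt1 peak on 2 of the 7, where 12.9% had one. At least 50% of the gene lay under Cbp20 in both replicates for 3 members and 27.4% of all genes, under Rnt1 for 2 members and 6.6%, and in all 4 lists for 2 members and 6.46%. No peak in any list was found on 4 members and on 43.7% of all genes. The shares of members, 3 and 4 of 7 for a Cbp20 peak and for none, lie near those backgrounds, and with 7 genes no share can be read closely. Among all coding genes, the median coverage was 5.93% and 0% for Cbp20 and 0% for both Rnt1 lists, and the median of the members was 0% in each list. Only 2.62% of coding genes were covered by Rnt1 to the extent of HXT1 or more in replicate 1 and 3.90% in replicate 2, and 3.27% and 3.52% to the extent of HXT3. For Cbp20 these shares were 8.90% and 7.66% for HXT1, 11.4% and 9.15% for HXT3, and 17.9% and 17.7% for HXT2.

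Within HXT1 and HXT3, Rnt1 coverage was lowest at the 5ʹ side. In the first of 3 equal segments of HXT1, Rnt1 covered 81.6% and 90.0%, and in that of HXT3 66.5% and 93.1%, while the middle and last segments of both genes were at 100% in both replicates. Genes in general showed the same order: the mean over the 402 and 675 genes that lay to at least 50% under Rnt1 was 64.8% and 70.6% in the first segment and 94.1% and 92.6% in the middle one. HXT2 had less Cbp20 coverage at both sides, with 85.6% and 80.6% in the first segment, 100% in the middle and 82.1% and 75.6% in the last. Genes that lay to at least 50% under Cbp20 also averaged less at both sides, with 78.0% and 78.7% in the first segment, 91.5% in the middle in both replicates, and 87.5% and 84.5% in the last.

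Short hairpins with an AGNN loop were searched on the coding strand, with the 4 loop bases closed by at least 7 consecutive Watson-Crick or G-U pairs. HXT3 and HXT4 held 1 each and the other 5 members none, where 9.51% of all coding genes held at least 1. They are shown here because 1 of these genes lay under Rnt1 peaks and the other did not, with the loop in capitals.
HXT3 (chrIV:1164341-1164358): agatggtAGTTattattt
HXT4 (chrVIII:287220-287239): ttgactttAGAAgaagttaa
The stem of HXT3 has 7 pairs and lay under the peaks of all 4 lists. That of HXT4 has 8 pairs and lay under none. Of the 396 coding genes with at least 50% under Rnt1 in both replicates 8.33% held such a hairpin, and of the 4728 with no Rnt1 peak 9.54%. A match is a description of the sequence alone, and HXT1 had none within these limits. Whether Rnt1 cuts stems as short as these was not tested.

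The other hexose transporter genes on the list had no peak. HXT8, HXT9, HXT10, HXT11, HXT13, HXT14, HXT15, HXT16, HXT17 and GAL2, the galactose permease gene, were at 0% in all 4 lists, 10 of 10, where 43.7% of all coding genes had no peak in any list. HXT15 and HXT16 had 11.7% of their bases in unique windows of 100 bases, HXT9 54.8% and HXT11 54.4%, and the other 6 had 92.7% to 100%. With the 7 members, 3 of 17 transporter genes thus carried a peak, and HXT1, HXT3 and HXT2 were those. The 17 include HXT6, HXT7, HXT15 and HXT16, whose sequence is mostly not unique, so that their 0% is not certain.

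Of 15 genes that sense glucose and pass the signal on, 12 carried a Cbp20 peak in both replicates and 4 a Rnt1 peak, where 44.9% and 12.9% of all coding genes did. The sensor gene SNF3, the F-box gene GRR1 and the co-repressor gene MTH1 were at 0% in all lists, and the sensor gene RGT2 had 31.4% and 44.7% under Cbp20 and none under Rnt1. RGT1, which encodes the repressor of HXT genes, had 5.98% and 23.3% under Cbp20. Highest was the casein kinase gene YCK1, with 100% in both Cbp20 lists and 57.1% and 100% in the Rnt1 lists. The other 3 with Rnt1 in both replicates were genes of glucose repression. The repressor gene MIG2 had 38.0% and 95.6% under Rnt1, and the co-repressor genes TUP1 and CYC8 24.0% and 56.7%, and 6.10% and 52.9%. Rnt1 covered more of each of these 4 genes in replicate 2 than in replicate 1, as it did in HXT1 and HXT3, by 2.80 and 8.86 percentage points. The Rnt1 list of replicate 2 was larger in general, with 10.2% of coding bases under peaks against 5.62% in replicate 1.

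Of the genes whose enzymes phosphorylate glucose after entry, all 3 carried Cbp20 in both replicates and 2 carried Rnt1, beside the same 44.9% and 12.9% of all coding genes. The hexokinase gene HXK2 was covered over 100% by Cbp20 in both and over 92.2% and 97.4% by Rnt1, values near those of HXT1. The glucokinase gene GLK1 had 99.3% and 97.5% under Cbp20 and 21.4% and 64.9% under Rnt1. HXK1, the other hexokinase gene, had 72.1% and 17.7% under Cbp20 and none under Rnt1.

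**Figure D4:**
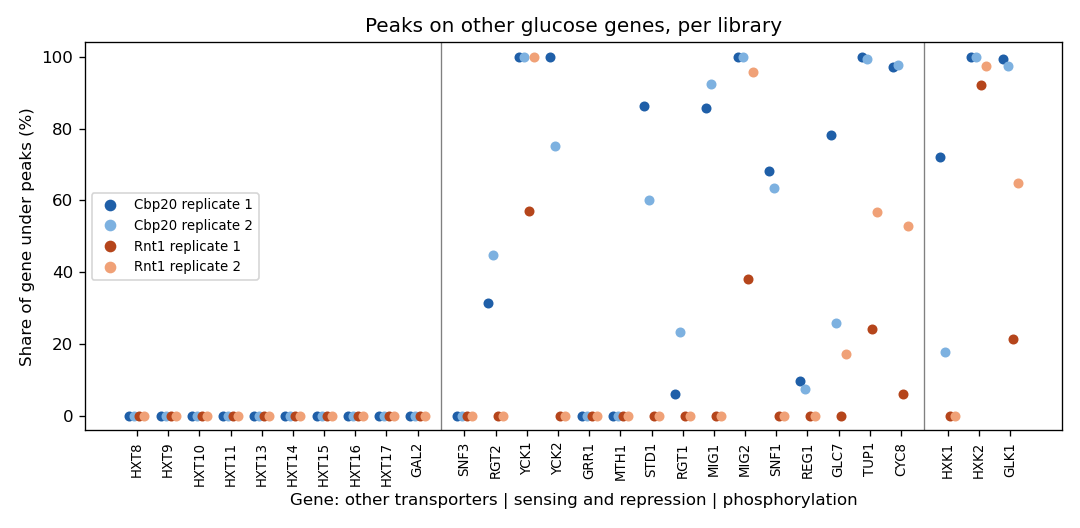
Share of each gene (%) under peaks in the 4 libraries for 10 other transporter genes, 15 genes of glucose sensing and repression and 3 of glucose phosphorylation. All points of the other transporter genes lie at 0%, whereas YCK1, YCK2, MIG2, TUP1, CYC8, HXK2 and GLK1 reach 95% or more in at least 1 Cbp20 list.

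By coverage in the 4 lists, the coding genes of at least 1000 bp nearest to the mean of the 7 members were LIN1, USA1 and YOR142W-B, at Euclidean distances of 16.3, 17.8 and 18.2 percentage points. That mean, 41.1% and 40.6% for Cbp20 and 26.1% and 27.8% for Rnt1, averages genes that are covered nearly whole and genes that are not covered, and no single member lies near it.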

How the data were processed

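Peak lists of 4 ChIP-seq libraries were used. The authors deposited chromosome, start and end of each peak, with no count, score or signal. Their methods describe read pairs aligned with Bowtie2 on sacCer3, uniquely mapped reads of mapping quality 30 or more and MACS2 peaks at q below 0.05. Versions are not given in the sources used here. Lists held 3801 and 3648 peaks for Cbp20 and 1238 and 1741 for Rnt1, over 23.1%, 21.6%, 5.92% and 9.98% of the nuclear genome. All peaks lay inside the R64 chromosomes. Of the series' samples, 7 measure RNA and were not used here. Coverage, windows and hairpins were computed with Python 3.11.15 and numpy 2.4.6 and checked on simulated data, identities with Biopython 1.88. Proteins were compared per gene by exact permutation of the libraries. Alternatives were a 50% overlap, the wider 50% of peaks, genes extended by 200 bp, peaks joined across 200 bp, each replicate left out, unique windows only, other affinity classes and a replicate block. The members and gene lists were chosen with earlier results of these data known. The test with 3 mismatches, the repeated genes, the flanks and the uniqueness of other transporter genes were added after the values were seen. Named genes were the members, their neighbours within 1000 bp, list genes with the highest or lowest coverage or with Rnt1 in both replicates, and the 3 genes of most like coverage. RGT2 and RGT1 were named outside this rule, for their roles, after their values were seen.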

Additional observations from a re-analysis of the deposited data

How the results depend on the processing

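The numbers of members with a peak, 3 for Cbp20 and 2 for Rnt1, were the same under every alternative run for them. HXT6 and HXT7 did not differ under any, but this was fixed in advance, since no list had a peak on either gene or within 200 bp of it. The difference of the high-affinity from the low-affinity class kept its sign throughout, but this too was largely fixed in advance. No list had a peak on HXT4, HXT6 or HXT7 or within 200 bp of them, and Rnt1 had none on or near HXT2. None of the alternatives could place one there, so the kept sign is no sign of robustness. The difference was −69.3 percentage points for Cbp20 and −79.7 for Rnt1 with genes extended by 200 bp. With HXT5 added to HXT2, HXT4, HXT6 and HXT7 it was −81.7 for Cbp20. With HXT6 and HXT7 alone as the high-affinity class it was −99.1 for Cbp20, but what 0% means for these genes is not certain. A comparison of the classes without HXT6 and HXT7 was not run. Extending the genes lowered the coverage of single genes, to 86.9% for HXT1, 70.1% for HXT2 and 86.7% for HXT3 under Cbp20 and to 78.3% for HXT1 and 81.2% for HXT3 under Rnt1, since the added bases lie largely outside the peaks. The replicate block, taken as differences within same-numbered libraries, gave the same means (4.73 points for HXT1, 87.3 for HXT2, 5.02 for HXT3) with an exact sign-flip permutation p = 0.5, the smallest 2 pairs allow. The numbers do not pair the samples by the labels, and the replicate differences of the 2 proteins correlated at 0.0673 across 6002 genes, which are not independent. Of these genes, 4728 had no Rnt1 peak in either replicate, so that their Rnt1 difference was 0. The correlation therefore cannot show whether the numbers pair the samples. The unknown depth limits every statement that a gene carried no peak.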
